A study of Mus musculus with 10 samples.

Results

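Potassium channel transcripts were compared between hearts of HIPK2 knockout and wild-type mice. The members are the array probes, controls left out, whose gene name begins with Kcn and which the scanner software marked as well above background on 4 or more arrays of a genotype. Of 181 probes of 98 Kcn genes on the array, 72 probes of 50 genes met this rule, out of 30693 probes of any name that met it. They comprise 29 probes of 21 voltage-gated genes, 13 probes of 9 inward rectifier genes, 6 probes of 5 two-pore genes, 10 probes of 5 calcium- and sodium-activated genes, 9 probes of 8 auxiliary subunit genes and 5 probes of 2 noncoding RNA genes. The last of these groups and the auxiliary group carry the family prefix but encode no pore.

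Total RNA of cardiac tissue came from 5 samples of male HIPK2 knockout mice and 5 samples of male wild-type mice, 1 to each 1-colour Agilent array of 60-base probes. HIPK2 is a nuclear protein kinase that phosphorylates transcriptional regulators. The knockout is a single CRISPR line on C57BL/6, missing 56 bases of the second exon with a shifted reading frame, crossed to C57BL/6 wild types to expand the colony, and all cells of the animal carry it. The labels name no chamber of the heart and no age, and they number samples within a genotype without saying that each was a separate mouse, so the spread behind the p-values may be technical.

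Potassium channels let potassium leave the cell and so bring the membrane potential of a cardiac myocyte back to rest after each beat. Voltage-gated channels open on depolarisation and carry the transient outward and delayed rectifier currents. Inward rectifiers hold the resting potential or open on acetylcholine or low ATP, two-pore channels pass a background current, and small-conductance channels open on calcium.

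Values below are log2 signal relative to the 75th percentile of the same array, and differences are knockout minus wild type on that log2 scale, with the standard error (SE) of a limma fit over all 30693 probes and Benjamini-Hochberg adjusted p. Probe positions are on mouse build mm9, as the array files give them. The 75th percentile of signal was 285.8 to 460.5 on knockout arrays and 462.1 to 542.3 on wild-type arrays. On knockout arrays 45.8% to 58.3% of spots stood well above background, and on wild-type arrays 55.7% to 60.4%. Wild-type replicates 1 and 2 shared slide 1, and the other 8 arrays, all 5 of the knockout among them, lay on slide 2. On slide 2 the wild-type arrays and knockout replicate 1 filled row 1 and the other knockout arrays row 2. The 3 Hipk2 probes differed by 0.04, 0.11 and -0.01 between genotypes (limma adjusted p = 0.903, 0.473 and 0.960), and where these probes lie relative to the deleted bases was not examined. The 6 genes listed as ventricular muscle markers were Myl2, Myl3, Myh6, Tnni3, Tnnt2 and Actc1. All 6 were well above background on every array, with a mean of 9.20 to 9.85 in knockout and 8.52 to 9.26 in wild type. Whether they mark ventricle apart from atrium here was not tested. The atrial score, the mean of Myl7, Myl4 and Sln, ran from -2.75 to 1.56 in knockout and from -3.02 to 4.81 in wild type. Wild-type replicates 2 to 5, at 2.00 to 4.81, lay above every knockout array, and replicate 1 had the -3.02. Myl7 and Sln were not above background on every array. The 4 endothelial markers were Pecam1, Cdh5, Kdr and Tek. Their mean was 1.81 to 2.06 in knockout and 2.21 to 2.34 in wild type, with no overlap. Of these 4, 1 had a limma adjusted p below 0.05, and their median difference was -0.22. The mean of 9 macrophage markers was 1.43 to 1.97 in knockout and 1.94 to 2.21 in wild type. That of 4 fat markers, not above background on every array, was -5.04 to -2.96 in knockout and -4.17 to 0.29 in wild type. In bulk tissue, fewer cells of a type and less RNA per cell cannot be told apart, and the part these markers play in the results below was not tested.

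Of the 72 potassium channel probes, 8 probes of 7 genes passed the threshold of 0.05 on the limma adjusted p, 6 higher and 2 lower in knockout. That is 11.1% of the members, against 4.44% of all 30693 probes, of which 1.69% rose and 2.76% fell. Kcnn2, by 2 probes, Kcnd3os, Kcnh2, Kcnh4 and Kcnq1 rose and Kcnk6 fell. Kcnmb1, the other probe on the lower side, met the detection rule only through wild type, so its direction is no result. No member differed by as much as 1 on the log2 scale; the differences ran from -0.71 to 0.89. The 72 probes had a median difference of 0.14, against 0.01 over all probes, and 45 of them (62.5%) lay above 0, against 51.1% of all probes. An unadjusted p below 0.05 was found for 27 members (37.5%), against 26.1% of all probes. The knockout and wild-type values did not overlap for 12 members, or 16.7%, against 8.5% of all probes; these were the 8 that passed, both Kcng2 probes, Kcnip1 and Kcnk4. With normexp background correction in place of the software's, 17 members passed, 16 higher and 1 lower, 7 of them among the 8, against 14.7% of all probes. All probes shifted upward in that fit too, with 3423 higher and 1094 lower past the threshold and a median difference of 0.09. Among the 50 members above background on all 10 arrays, 7 passed, against 6.62% of all such probes. From the 8 these were Kcnn2 at base 1800, Kcnk6, Kcnh2 at base 4161 and Kcnh4. Kcnip1, Kcng2 at base 386 and Kcnh2 at base 3475 passed there and were not among the 8. They also passed with normexp. The rest of the 8 were not above background on all 10 arrays. The count was 4 within slide 2, against 1.7% of all probes. It was 1 without wild-type replicate 2, where 136 of all 30693 probes rose and 267 fell. It was also 1 without wild-type replicate 4, where 123 of all probes rose and 232 fell. By limma 0 members passed with the atrial score or the replicate number in the fit, where 21 and 29 had an unadjusted p below 0.05. Of all 30693 probes, 5943 and 7518 did there. With the score 35 of all probes rose and 43 fell past the threshold, and with the number 61 rose and 178 fell. With no detection filter 0 of the 181 Kcn probes passed by limma, and 80 had an unadjusted p below 0.05. Of all 56605 probes, 128 rose and 92 fell there, and 20471 had an unadjusted p below 0.05.

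**Figure D1:**
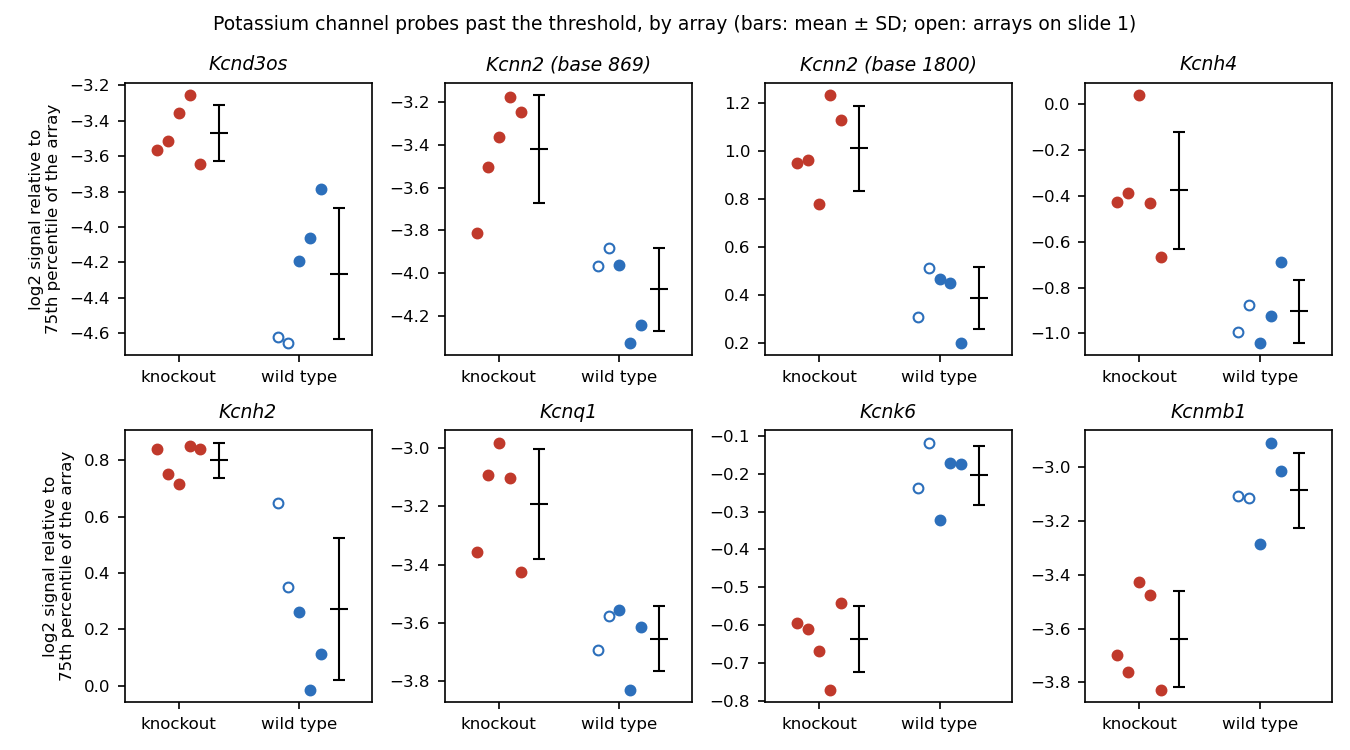
Each panel plots 1 of the 8 potassium channel probes past the threshold, as log2 signal relative to the 75th percentile of the array, for 5 knockout and 5 wild-type arrays; horizontal bars are means, vertical bars are ± SD and open points are the arrays of slide 1. In all 8 panels the knockout points lie wholly above or wholly below the wild-type points.

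Among the families, the voltage-gated genes had 3 probes up and 0 down of 29, with a median difference of 0.21. The inward rectifiers had 0 up and 0 down of 13 by limma, 2 of them with an unadjusted p below 0.05, and a median of 0.02. The two-pore genes had 0 up and 1 down of 6 and a median of 0.13, which turned to -0.029 with 1 probe per gene. Of the calcium- and sodium-activated genes 2 probes of 10 rose and 0 fell, with a median of 0.33. Of these 10 probes 7 belong to Kcnn1 and Kcnn2, and the median was 0.024 with 1 probe per gene and 0.17 among probes above background on all arrays. The auxiliary genes had 1 probe, that of Kcnmb1, past the threshold of 9 and a median of 0.07, and the noncoding genes 1 up of 5 and a median of -0.14. Of the auxiliary probes, Kcne3, Kcne4, Kcnip3 at base 831 and Kcnmb1 were kept only through wild type. Among auxiliary probes above background on all arrays the median was 0.39 (n = 5). Some probes of other families, Kcnt2 and Kcnj15 among them, were also kept only through wild type. The share above 0 was 20 of 29 voltage-gated probes, 7 of 13 inward rectifier probes and 3 of 6 two-pore probes. No test was made between families, since probes of a gene are not independent.

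**Figure D2:**
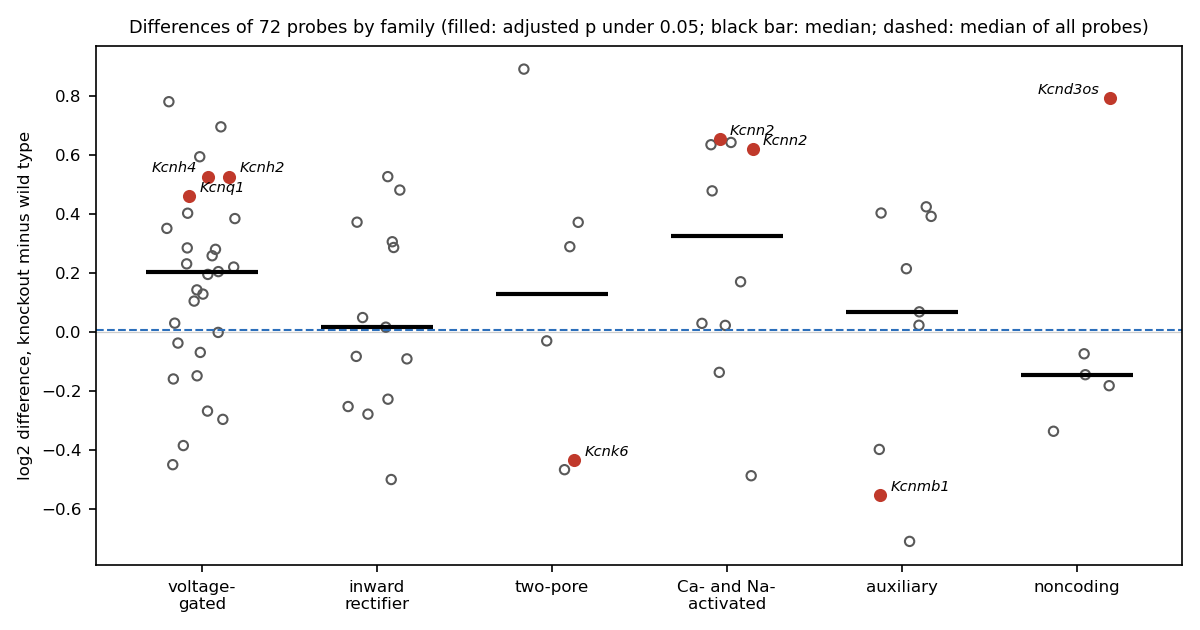
Each point is 1 of the 72 probes, by family on the horizontal axis and by its log2 difference, knockout minus wild type, on the vertical axis; filled points passed the limma threshold, black bars are family medians and the dashed line is the median of all probes. The voltage-gated median of 0.21 and the calcium- and sodium-activated median of 0.33 (0.11 and 0.024 with 1 probe per gene) lie above the dashed line at 0.01, and the inward rectifier median of 0.02 lies close to it.

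Kcnh2, which encodes the pore subunit of the rapid delayed rectifier, rose at 1 of its 2 kept probes. The Kcnh2 probe that starts at base 4161 of its transcript, at chr5:23825407-23825466 of mm9, read 0.84, 0.75, 0.72, 0.85 and 0.84 in knockout replicates 1 to 5, against 0.65, 0.35, 0.26, -0.02 and 0.11 in wild-type replicates 1 to 5. Every knockout array was above every wild-type array, and the wild-type arrays were the more spread. The difference was 0.53 ± 0.12 (SE), 1.44-fold (limma adjusted p = 0.0367), and within slide 2 it was 0.68 (adjusted p = 0.0258). The Kcnh2 probe at base 3475, which spans chr5:23827188-23827460, read 1.36, 1.58, 1.07, 1.61 and 1.70 in knockout, against 1.22, 0.87, 0.99, 0.80 and 0.46 in wild type. Knockout replicate 3 fell below wild-type replicate 1 and the groups otherwise did not overlap. This probe's difference of 0.60 ± 0.16 missed the threshold (limma adjusted p = 0.0578). The call of the first probe held in 2 of 10 fits that left out 1 array, without knockout replicate 3 (adjusted p = 0.0470) and without wild-type replicate 1 (0.0176), and reached 0.0806 in the others.

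Kcnh4, a gene of the same ether-a-go-go group known mainly from brain, had 2 kept probes. At base 3700, chr11:100601716-100601775, it read -0.43, -0.39, 0.04, -0.43 and -0.67 in knockout, against -0.99, -0.87, -1.04, -0.92 and -0.69 in wild type. Knockout replicate 5 lay just above wild-type replicate 5 and the groups did not overlap. The difference was 0.53 ± 0.13, 1.44-fold (limma adjusted p = 0.0453), and 0.51 within slide 2 (adjusted p = 0.137). The probe at base 2194 differed by 0.35 ± 0.15 (limma adjusted p = 0.160). The call held without knockout replicate 3 or 5 (adjusted p = 0.0482 and 0.0371) and reached 0.0941 in the other 8 fits that left out 1 array.

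The probes of Kcnh2 and Kcnh4 are shown because each gene has 1 probe that rose and 1 that missed the threshold with a difference above 0, and because base composition went with the size of the difference over the whole array. Each line gives the middle 30 bases, 16 to 45 of 60, as the array files hold them, 5′ to 3′, with G and C in capitals. The Kcnh2 probe that passed has 38.3% G and C over its 60 bases and the Kcnh4 probe that passed has 50%.
Kcnh2, base 4161: ataaataattatCCtGaGGaGaCtCCaGGG
Kcnh2, base 3475: CCCGGCtaaGtGCaGaCatGGCCaCtGtCC
Kcnh4, base 3700: CtttCtCaCtCaatGCCCCaCCCaGGCGCa
Kcnh4, base 2194: CCtaCCCCGGGaCCtaaCCttCaaCCtGCG

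The 250 bases before the start of both genes are shown for the same reason, from RefSeq on GRCm38.p6. Kcnh2 is at chr5:24329592-24329841 and Kcnh4 at chr11:100759779-100760028, both on the minus strand. Capitals mark the E-box CACGTG and the GC box GGGCGG, searched on both strands; these motifs share no letters here. Kcnh2 held 0 E-boxes and 3 GC boxes, and Kcnh4 held 1 of each.
Kcnh2 upstream: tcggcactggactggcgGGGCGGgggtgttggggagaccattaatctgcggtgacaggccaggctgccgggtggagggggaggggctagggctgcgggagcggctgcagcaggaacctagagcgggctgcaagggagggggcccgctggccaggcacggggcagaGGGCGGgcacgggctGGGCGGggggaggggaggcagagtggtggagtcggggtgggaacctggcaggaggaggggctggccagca
Kcnh4 upstream: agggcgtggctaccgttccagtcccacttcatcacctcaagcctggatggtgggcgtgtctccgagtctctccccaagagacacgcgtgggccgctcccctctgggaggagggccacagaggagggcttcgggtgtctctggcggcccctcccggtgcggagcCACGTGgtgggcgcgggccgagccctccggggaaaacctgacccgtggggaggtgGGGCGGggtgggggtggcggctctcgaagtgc
Of the 45 upstream windows found for 36 of the member genes, 6 (13.3%) held the E-box and 20 (44.4%) the GC box, against 6.02% and 32.7% of all 32851 windows of that length. A match is a run of letters and says nothing about binding.

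Kcnq1, the pore subunit of the slow delayed rectifier, had 4 kept probes, of which only the one at base 811 passed. It spans chr7:150334693-150335442, a stretch longer than the probe, so that it crosses a splice junction. It read -3.36, -3.09, -2.98, -3.10 and -3.42 in knockout, against -3.69, -3.58, -3.56, -3.83 and -3.61 in wild type. This dim probe was not above background on all 10 arrays. The groups did not overlap, and the difference was 0.46 ± 0.11, 1.38-fold (limma adjusted p = 0.0390), and 0.47 within slide 2 (adjusted p = 0.103). The call held in 1 of the 10 fits that left out an array, without knockout replicate 5 (adjusted p = 0.0331), and reached 0.0888 in the others.

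The other 3 Kcnq1 probes did not pass. The probes at bases 2968 and 3317 overlap at chr7:150612896-150612946 and gave 0.14 ± 0.11 and 0.22 ± 0.10 (limma adjusted p = 0.434 and 0.181). The probe at base 923 gave 0.70 ± 0.35 (adjusted p = 0.230). In that probe knockout replicate 4 read -1.75, above -4.14 to -3.29 in the other knockout arrays and -4.03 to -3.72 in wild type. The 4 sequences, drawn as above, show the pair that overlaps and the higher G and C content of the other pair, 53.3% against 38.3% and 41.7%.
Kcnq1, base 811: GGaGGCttCCtCattGttCtGGtCtGCCtC
Kcnq1, base 923: tGtCtaCttGGCtGaGaaaGatGCGGtGaa
Kcnq1, base 2968: tCttGattGaGaGaCttttCCaaataaaGt
Kcnq1, base 3317: aGaGaCttttCCaaataaaGttGGGaCGtC

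Kcng2, a modulatory subunit that forms no channel alone, had 2 probes whose groups did not overlap and that missed the threshold. The probe at base 386 read -0.81, -0.85, -0.90, -0.88 and -0.75 in knockout, against -0.99, -1.06, -1.45, -1.35 and -1.28 in wild type. The knockout arrays were tightly grouped and the nearest wild-type array, replicate 1, lay just under them. The difference was 0.39 ± 0.10 (limma adjusted p = 0.0557), and 0.52 within slide 2 (adjusted p = 0.0341). With the centring by G and C content described below it was 0.20 (adjusted p = 0.373). The probe at base 1935 differed by 0.23 ± 0.08 (adjusted p = 0.120).

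The pore subunits of the fast transient outward and ultrarapid currents did not pass. Kcnd3 differed by 0.20 ± 0.11 (limma adjusted p = 0.269) and Kcna5, of the ultrarapid current, by 0.03 ± 0.13 (0.899). Kcnd2, the other pore subunit of the fast transient outward current, read 0.89, 1.09, 0.24, 1.02 and 0.91 in knockout, against 1.86, 1.21, 0.72, 0.14 and 0.23 in wild type. The wild-type values fell into the 2 slide 1 arrays, above all knockout arrays, and the 3 slide 2 arrays, below most of them. Both genotypes averaged 0.83 (SD 0.34 in knockout and 0.72 in wild type, n = 5 each), and within slide 2 the difference was 0.47 (limma adjusted p = 0.262). Kcna4, of the slow transient outward current, and the modulatory subunit Kcnv2 did not meet the detection rule.

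**Figure D3:**
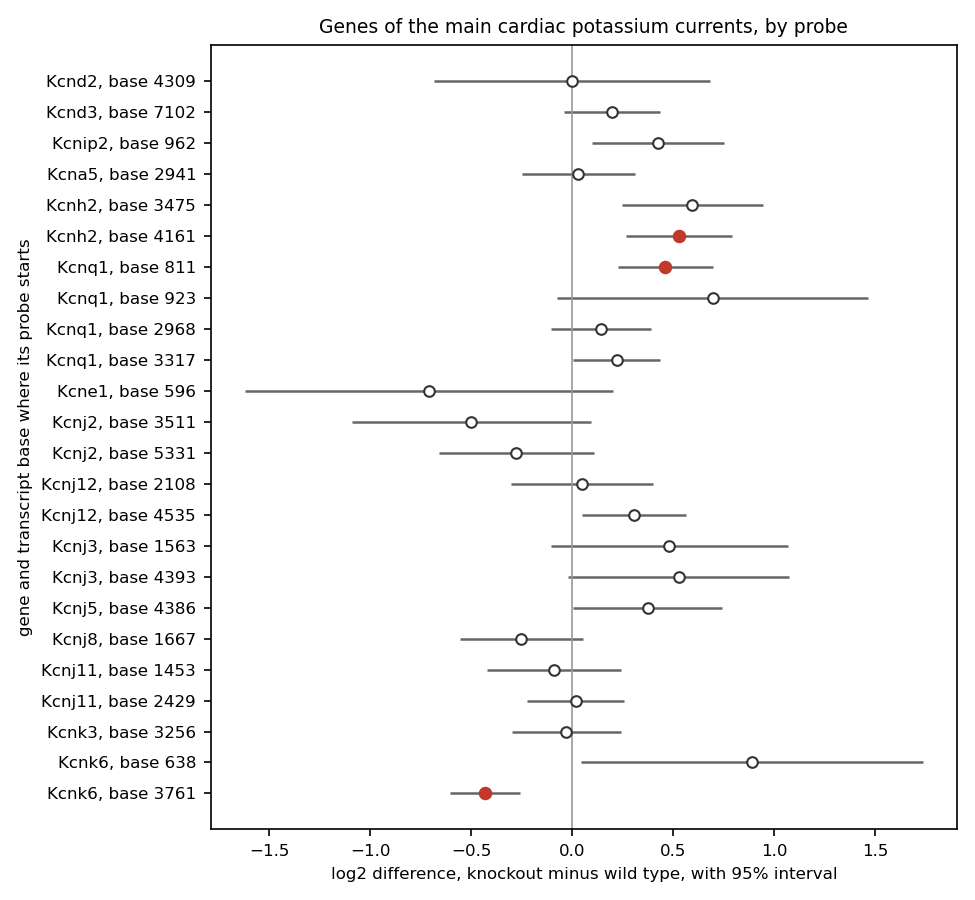
Named genes of the main cardiac potassium currents run down the page, 1 line for each kept probe with its transcript base; points are log2 differences, knockout minus wild type, over 5 against 5 arrays, lines are 95% intervals of the limma fit, and filled points passed the threshold. Kcnh2 at base 4161, Kcnq1 at base 811 and Kcnk6 at base 3761 are filled, and the 2 Kcnk6 probes lie on opposite sides of 0.

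No inward rectifier probe passed in either direction. Kcnj2, which carries most of the resting inward rectifier current of ventricular myocytes, read 2.78, 2.83, 2.37, 2.56 and 2.67 in knockout at base 5331, against 3.37, 3.20, 2.87, 2.39 and 2.77 in wild type. The 2 slide 1 arrays were the highest, and the other wild-type arrays, at 2.39 to 2.87, spread over the knockout range. The difference was -0.28 ± 0.17 (limma adjusted p = 0.331) and -0.03 within slide 2 (adjusted p = 0.915). The dimmer Kcnj2 probe, at base 3511, differed by -0.50 ± 0.27 (adjusted p = 0.259). Kcnj12, of the same current, differed by 0.31 ± 0.12 at base 4535 (95% interval 0.05 to 0.56, adjusted p = 0.132) and by 0.05 ± 0.16 at base 2108 (0.868).

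Kcnj3 and Kcnj5 together form the acetylcholine-activated channel, which is most abundant in atrium and node. Kcnj5 read 3.35, 3.14, 2.88, 3.23 and 3.30 in knockout, against 3.13, 3.17, 2.83, 2.59 and 2.33 in wild type. Wild-type replicates 3, 4 and 5 lay below every knockout array, and the slide 1 arrays lay among the knockout arrays. The difference was 0.37 ± 0.17 (limma adjusted p = 0.187) and 0.60 within slide 2 (0.0784). Kcnj3 differed by 0.53 ± 0.25 and 0.48 ± 0.27 at its 2 probes (adjusted p = 0.205 and 0.271), and by 0.89 and 0.77 within slide 2 (0.0654 and 0.178). When the atrial score was added to the fit, 0 of the 72 members passed by limma, and 21 had an unadjusted p below 0.05. The differences in that fit were 0.68 for Kcnn2 at base 1800, 0.90 for Kcnd3os, 0.56 for Kcnh4, 0.46 for Kcnq1 at base 811 and -0.41 for Kcnk6 at base 3761, against 0.62, 0.79, 0.53, 0.46 and -0.43 without the score, and 0.41 for Kcnh2 at base 4161, against 0.53 without it. Adjusted p over the 8 ran from 0.0626 to 0.149. Of all 30693 probes, 35 rose and 43 fell in that fit, and 5943 had an unadjusted p below 0.05.

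The subunits of the ATP-sensitive channel did not pass. Kcnj8, found in myocytes and in pericytes and smooth muscle of vessels, differed by -0.25 ± 0.14 (limma adjusted p = 0.270). Kcnj11, the pore subunit of the myocyte plasma membrane channel, differed by 0.02 ± 0.11 and -0.09 ± 0.15 at its 2 probes (adjusted p = 0.935 and 0.735). For Kcnj11 at base 2429 the 95% interval ran from -0.22 to 0.26.

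Kcnk6, a two-pore channel of weak inward rectification, fell at the probe at base 3761, chr7:30007215-30007274. It read -0.59, -0.61, -0.67, -0.77 and -0.54 in knockout, against -0.24, -0.12, -0.32, -0.17 and -0.18 in wild type. The groups did not overlap and were alike in spread. The difference was -0.43 ± 0.08, 1.35-fold lower (limma adjusted p = 0.0204), and -0.41 within slide 2 (adjusted p = 0.0654). The call held in 7 of 10 fits that left out an array and was lost without wild-type replicate 2, 4 or 5 (adjusted p = 0.0518, 0.0529 and 0.0564).

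The second Kcnk6 probe, at base 638 and chr7:30010550-30010609, lay on the other side of 0. It read -2.09, -2.20, -1.52, -2.09 and -2.51 in knockout, against -3.84, -4.10, -2.52, -2.21 and -2.21 in wild type. The 2 slide 1 arrays were far below the other 8, which overlapped. Its difference of 0.89 ± 0.38 was the largest of any member and missed the threshold (limma adjusted p = 0.172); within slide 2 it was 0.23 (adjusted p = 0.547). The difference between the 2 probes was not tested. Their middle bases are given because they read the same gene with opposite signs at the same G and C content, 45% over 60 bases.
Kcnk6, base 3761: attCCtGGttCtGaaaGCaGaaCtCtGtGa
Kcnk6, base 638: CtatttCtGCttCatCtCtCtGtCCaCCat

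The remaining two-pore genes did not pass. Kcnk3, an acid-sensitive background channel of myocytes, differed by -0.03 ± 0.12 (95% interval -0.30 to 0.24, limma adjusted p = 0.905). Kcnk4, a mechanically gated channel, read -1.62, -1.64, -1.08, -1.67 and -1.56 in knockout, against -1.88, -1.93, -1.77, -1.99 and -1.85 in wild type. Its groups did not overlap, with knockout replicate 3 the highest, and its difference was 0.37 ± 0.12 (adjusted p = 0.0904). Kcnk13 differed by -0.47 ± 0.28 and Kcnk16 by 0.29 ± 0.22 (adjusted p = 0.312 and 0.425). Kcnk2, the stretch-sensitive channel of the same family, did not meet the detection rule.

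Kcnn2, a small-conductance calcium-activated channel known in mouse atrial myocytes, rose at 2 of its 3 kept probes. At base 1800, chr18:45845292-45845351, it read 0.95, 0.96, 0.78, 1.23 and 1.13 in knockout, against 0.31, 0.51, 0.47, 0.45 and 0.20 in wild type. The lowest knockout array stood clear of the highest wild-type array. The difference was 0.62 ± 0.11, 1.54-fold (limma adjusted p = 0.0165), and 0.64 within slide 2 (adjusted p = 0.0482). This was the one member of the 8 whose call held in all 10 fits that left out an array, with adjusted p from 0.0162 to 0.0487.

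The second Kcnn2 probe, at base 869, read -3.81, -3.50, -3.36, -3.17 and -3.25 in knockout, against -3.97, -3.88, -3.96, -4.33 and -4.24 in wild type. The groups did not overlap, with knockout replicate 1 nearest to the wild-type arrays. This dim probe was above background on 4 knockout and 5 wild-type arrays. The difference was 0.65 ± 0.14, 1.57-fold (limma adjusted p = 0.0307), and 0.76 within slide 2 (adjusted p = 0.0561). Its call held in 4 of 10 fits that left out an array, without knockout replicate 1 or 3 or wild-type replicate 1 or 3, and was lost in the other 6 (adjusted p up to 0.0733). The third probe, at base 987, differed by 0.48 ± 0.15 (adjusted p = 0.0854).

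Other calcium- and sodium-activated genes did not pass. Kcnn1, a close relative of Kcnn2, had 4 probes that differed by -0.14, 0.03, 0.17 and 0.64, of which the last, at base 887, was above background on 2 knockout and 4 wild-type arrays (limma adjusted p = 0.0918). Kcnma1, the pore subunit of the large-conductance calcium-activated channel, differed by 0.64 ± 0.28 (adjusted p = 0.176) and by 0.28 within slide 2 (0.545). Kcnt2, a sodium-activated channel, differed by -0.49 ± 0.19 (adjusted p = 0.145) and by 0.09 with normexp correction. Its probe was above background on 3 knockout and 5 wild-type arrays. It was kept only through wild type, so its direction is no result.

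Kcnmb1, the beta subunit of the large-conductance channel of smooth muscle, passed the threshold with lower values in knockout, but its probe was kept only through wild type and its direction is no result. The probe at chr11:33870457-33870516 read -3.70, -3.76, -3.43, -3.48 and -3.83 in knockout, against -3.11, -3.12, -3.28, -2.91 and -3.02 in wild type. The groups did not overlap, but only 3 of the 5 knockout arrays measured the probe well above background, against 5 of the 5 wild-type arrays. The difference was -0.55 ± 0.11 (limma adjusted p = 0.0249), and -0.57 within slide 2 (adjusted p = 0.0712). With normexp background correction in place of the software's, it was -0.03 (adjusted p = 0.838). The mean of 4 smooth muscle markers was 2.94 to 3.74 in knockout and 2.60 to 3.71 in wild type, and that of 4 pericyte markers 2.03 to 2.64 in knockout and 2.60 to 3.05 in wild type; all 8 were above background on every array. The call held in 5 of 10 fits that left out an array and was lost without knockout replicate 1 or 2 or wild-type replicate 2, 4 or 5 (adjusted p up to 0.0623).

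The other auxiliary genes did not pass. Kcnip2, the subunit that the fast transient outward channel needs in mouse ventricle, read 1.21, 0.93, 0.55, 1.29 and 1.06 in knockout, against 0.74, 0.83, 0.45, 0.46 and 0.43 in wild type. Knockout replicate 3 lay among the wild-type arrays and the other knockout arrays above them. The difference was 0.43 ± 0.15 (limma adjusted p = 0.109), and without knockout replicate 3 it passed (adjusted p = 0.0406). Kcnip1, a relative of Kcnip2 known from neurons, differed by 0.40 ± 0.11 with no overlap (adjusted p = 0.0593). Kcne1, the partner of Kcnq1 in the slow delayed rectifier, had the lowest difference of all members, -0.71 ± 0.41, with the largest SE of any auxiliary gene (95% interval -1.62 to 0.20, adjusted p = 0.297). Kcne4, another small partner subunit, differed by -0.40 ± 0.17 (adjusted p = 0.174) and by 0.04 with normexp correction. Its probe was above background on 3 knockout and 5 wild-type arrays. It was kept only through wild type, so its direction is no result.

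Kcnd3os, a noncoding RNA whose gene overlaps the start of Kcnd3 in RefSeq (chr3:105448190-105452955 against chr3:105451890-105674002 on GRCm38), rose. Its probe at chr3:105254246-105254305 of mm9 read -3.57, -3.52, -3.36, -3.26 and -3.64 in knockout, against -4.62, -4.65, -4.19, -4.06 and -3.79 in wild type. The groups did not overlap, and the 2 slide 1 arrays were the lowest. This dim probe was above background on 4 knockout and 4 wild-type arrays. The difference was 0.79 ± 0.17, 1.73-fold (limma adjusted p = 0.0306), and 0.54 within slide 2 (adjusted p = 0.0744). The call held without knockout replicate 3 or 5 or wild-type replicate 3 or 5 and was lost in the other 6 fits that left out an array (adjusted p up to 0.0653). Kcnq1ot1, an imprinted transcript that lies inside Kcnq1, had 4 probes that differed by -0.34 to -0.07 and did not pass. The probe at -0.34 was kept only through wild type, so its direction is no result. With normexp correction it differed by 0.17. The middle bases of the Kcnd3os probe, at 55% the richest in G and C of the 8, and of the Kcnmb1 probe, at 41.7%, are set side by side.
Kcnd3os, base 600: GGaCCCaGCGtGaGGaGtGGGaCaaCCaCG
Kcnmb1, base 1006: tttGGaaaGCtGtttCttGCtCaaGaatGC

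Over the 15 genes with several kept probes, 37 probes in all, 12 genes had differences of 1 sign and 3 of both signs, namely Kcnk6, Kcnn1 and Kcnj11. The median distance between the lowest and highest probe of a gene was 0.18. For Kcnh2 it was 0.07, for Kcnn2 0.18, for Kcnq1 0.55 and for Kcnk6 1.32. Kcnn2 was the only gene with 2 probes past the threshold.

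Probes rich in G and C tended to be higher in knockout. Over the 72 potassium channel probes the correlation of the difference with G and C content was r = 0.44, against r = 0.27 over all 30693 probes; probes of 1 gene and probes on 1 array share their source, so no p is given. Members with up to 40% G and C had a median difference of -0.02 (n = 30), those above 40% and up to 50% 0.13 (n = 25), and those above 50% 0.37 (n = 17). The same classes of all probes had medians of -0.08, 0.03 and 0.16. Above 50%, 15 of 17 members lay above 0, against 75.3% of all probes there. After each array was centred on the median of probes of like G and C content, 6 members passed, all among the 8, against 3.8% of all probes. Kcnq1 was lost with a difference of 0.31 in place of 0.46 (adjusted p = 0.0950), and Kcnh4 with 0.44 in place of 0.53 (0.0622). Among probes outside the 8, Kcng2 at base 386 went from 0.39 to 0.20, Kcnh2 at base 3475 from 0.60 to 0.41 and Kcnk4 from 0.37 to 0.22. Their limma adjusted p was 0.373, 0.228 and 0.214. Kcnip1, Kcnip2 and Kcnn2 at base 987 moved slightly the other way, to 0.41, 0.44 and 0.54. The voltage-gated median was 0.17, the inward rectifier median -0.02 and the two-pore median -0.02. Whether base composition takes part in the remaining differences was not tested.

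**Figure D4:**
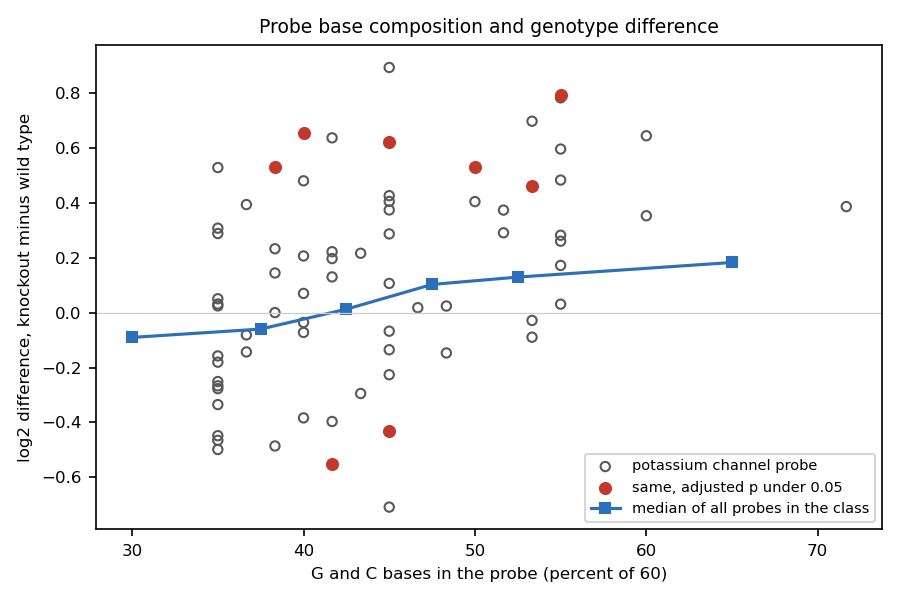
Each point is 1 of the 72 probes, by the percent of G and C among its 60 bases on the horizontal axis and its log2 difference, knockout minus wild type, on the vertical axis; filled points passed the limma threshold and squares are medians of all kept probes in 6 classes of G and C content. The squares climb with G and C content, and 15 of the 17 members above 50% lie above 0.

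For 14 of the 72 members (19.4%) both slide 1 arrays, which are wild type, lay outside the range of the 8 slide 2 arrays, on one side, a share close to the 19.7% of all probes; in 9 they lay below and in 5 above. Within slide 2, with 5 knockout and 3 wild-type arrays, 4 members passed, against 1.7% of all probes. These were Kcnn2 at base 1800, Kcnh2 at base 4161, Kcng2 at base 386 and Kcnc1, a voltage-gated gene that fell by 0.83 there (limma adjusted p = 0.0426) and differed by -0.27 over 10 arrays. Of the 72 members, 7 had the opposite sign within slide 2; the 8 past the threshold had groups that did not overlap, so their sign could not turn there. With slide as a block, 8 members passed, 6 of them shared with the 8, against 3.06% of all probes. Kcnh4 and Kcnq1 were lost with differences of 0.51 and 0.47 (adjusted p = 0.102 and 0.0721), and Kcng2 at base 386 and Kcnj3 at base 4393 passed (0.0189 and 0.0434). On slide 2 the row and the genotype overlap almost wholly, and their parts cannot be told apart.

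**Figure D5:**
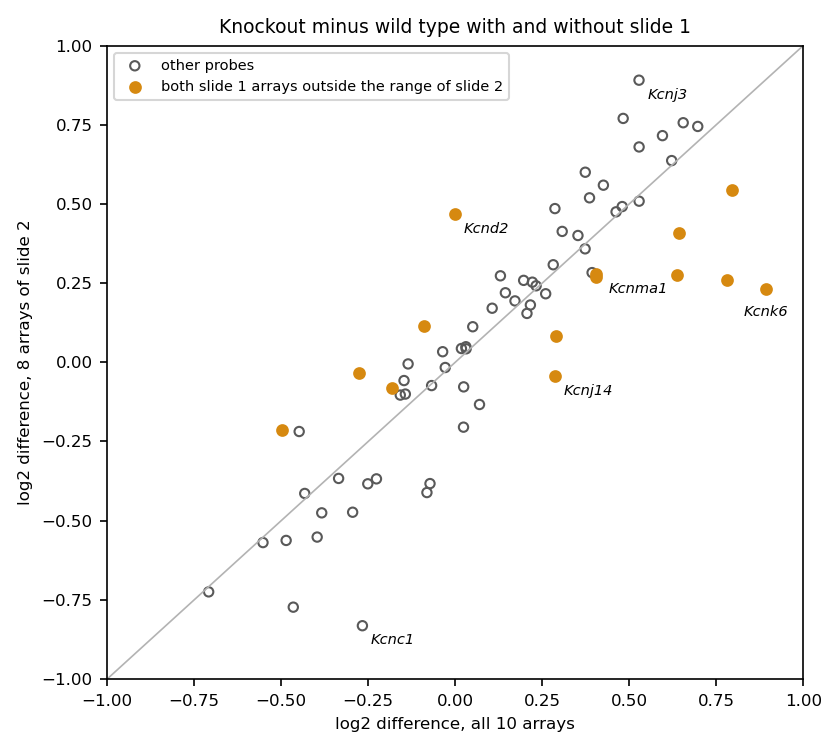
Each point is 1 of the 72 probes, with the log2 difference, knockout minus wild type, over all 10 arrays on the horizontal axis and over the 8 arrays of slide 2 on the vertical axis; filled points are the 14 probes whose slide 1 arrays both lie outside the range of slide 2, and the line marks equal values. Kcnk6 at base 638 stands at 0.89 over 10 arrays and at 0.23 over slide 2.

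Genes that bind, move or regulate potassium channels were read from a list of 20, of which 18 had kept probes, 33 in all. By limma 1 probe rose, 1 fell and 31 did not pass, or 6.06% past the threshold, against 4.44% of all probes, with a median difference of 0.05. The share is close to that of all probes. By limma 0 of the 33 passed with slide as a block, with G and C centring, within slide 2 or with the atrial score. In that order 8, 8, 7 and 7 had an unadjusted p below 0.05. Of all 30693 probes, 6660, 7094, 6213 and 5943 did. Lrrc52, a relative of the auxiliary leucine-rich subunits of large-conductance channels, read -2.47, -2.69, -3.36, -2.05 and -3.90 in knockout, against -1.46, -1.17, -1.69, -2.18 and -1.47 in wild type. Knockout replicate 4 overlapped wild-type replicate 4, and the difference was -1.30 ± 0.32 (adjusted p = 0.0480). That call held only without knockout replicate 4 (0.0373) among the 10 fits that left out an array, and reached 0.108. The Lrrc52 probe was not above background on all 10 arrays, and with normexp correction it differed by -0.63 (limma adjusted p = 0.0363). Ank2, which encodes the anchoring protein ankyrin-B, rose at 1 of its 7 kept probes by 0.46 ± 0.10 (adjusted p = 0.0378), the one with the highest G and C content, 78.3%, and its other probes did not pass. Irx5, a repressor of Kcnd2 in mouse ventricle, differed by 0.40 ± 0.18 and Klf15, an activator of Kcnip2 in mouse heart, by 0.23 ± 0.16 (adjusted p = 0.188 and 0.373).

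The detection rule left out 109 Kcn probes and 48 genes, among them 3 of the 19 genes of the main cardiac currents, Kcna4, Kcnv2 and Kcnk2. Of the 109 probes, 68 were well above background on no array of either genotype, 8 reached 3 arrays in their better genotype, among them probes of Kcnk1, Kcnj13 and Kcnmb4, and 3 kept probes reached exactly 4. Those 3 were Kcnip3 at base 831, Kcnn1 at base 887 and Kcnd3os, with differences of 0.22, 0.64 and 0.79. Of the kept probes 50 were above background on all 10 arrays. Kept only through wild type were 11 probes, and 8 of these lay below 0. Among them were Kcnmb1, Kcnc4, Kcnt2, Kcne4 and Kcnq1ot1 at base 67016. Kept only through knockout were 0. The 11 had to be dim in knockout to fall in this class, so their direction is no result.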

How the data were processed

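Per the file headers, the deposited scanner files hold spot intensity from Agilent Feature Extraction (10.7.1.1, per the submitters' processing notes), background-subtracted within each array. The authors' deposited log2 value table served as an alternative. Here log2 intensity was taken relative to each array's 75th percentile over 59305 non-control spots, outlier spots were dropped and spots of a probe averaged. Genotypes were compared with limma 3.58.1 (R 4.3.3, lmFit, eBayes, no covariates) over 30693 probes with Benjamini-Hochberg adjustment, threshold 0.05. The fit was run on simulated data with independent noise and no slide, row or base composition effect, so that run cannot speak to those effects. Members, families and lists were chosen with earlier results of these data known. Named genes are those past the threshold, up to 4 of each family by smallest p, 19 genes of cardiac currents and partner genes past the threshold. Some genes are not reported here. Of the members, 67 probes matched a RefSeq symbol. Alternatives were background correction, normalization, filters, 1 probe per gene, slide, atrial score, replicate number, single arrays left out and, added after seeing the data, G and C centring.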

Additional observations from a re-analysis of the deposited data

Results flagged for a closer look

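Within groups of 5 arrays, 6 of 104 groups of named probes (5.77%) held an array far from the other 4, where chance gives about 1 in 20; all 6 were knockout groups, and 4 of them turn on knockout replicate 3. In knockout replicate 3, Kcnma1 read -1.04, against -2.08 to -1.91 in the other knockout arrays. Kcnk4 read -1.08 there, against -1.67 to -1.56. Kcnj3 at base 4393 read 0.066 there, against 0.68 to 0.81, and Kcnd2 read 0.24, against 0.89 to 1.09. In knockout replicate 4, Kcnn1 at base 2525 read 0.79, against 0.37 to 0.41 in the other knockout arrays, and a Kcnq1ot1 probe, at base 73387, read 1.03, against 1.79 to 2.01. None of these 6 probes passed the limma threshold.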

How the results depend on the processing

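The count of potassium channel probes past the threshold, 8 of 72, was 8 with quantile normalization, the authors' deposited value table and slide as a block, 7 among probes above background on all arrays and 6 with centring by G and C content. Of those 7, Kcnip1, Kcng2 at base 386 and Kcnh2 at base 3475 were not among the 8. The count moved further with other settings. It was 17 (16 up, 1 down) with normexp, 5 with 1 probe per gene and 4 within slide 2. Of all 30693 probes, 3423 rose and 1094 fell with normexp, and 162 rose and 360 fell within slide 2. With 1 probe per gene 407 of all 20488 rose and 609 fell. The count was 0 by limma with no filter, the atrial score and the replicate block, where 80, 21 and 29 probes had an unadjusted p below 0.05. Over all probes, 20471 of 56605 with no filter had an unadjusted p below 0.05. With the atrial score and the replicate block 5943 and 7518 of 30693 did. Without a single array the count ran from 1 to 10. It was 1 without wild-type replicate 2 or 4 and 2 without knockout replicate 2 or wild-type replicate 5. It was 3 without knockout replicate 1 or 4 and 5 without wild-type replicate 3. Calls over all 30693 probes changed as well. Without knockout replicate 3, 545 rose and 679 fell, and without wild-type replicate 5, 115 rose and 187 fell. Same-numbered arrays did not deviate together (r from -0.10 to 0.06), so the replicate block pairs numbers only. The partner count of 2 was 5 with normexp, 1 with quantile normalization, the all-array filter, 1 probe per gene and the value table, 0 with no filter, slide as a block, slide 2, the atrial score, the replicate block and G and C centring, and 0 to 1 without an array. Of the family medians, with no filter the voltage-gated was 0.61, inward rectifier 0.34, two-pore 0.68, calcium- and sodium-activated 0.48, auxiliary 0.66 and noncoding 0.36. The median of all 56605 probes rose as well with no filter, to 0.22 from 0.01. With the all-array filter inward rectifier was 0.17, calcium- and sodium-activated 0.17 and auxiliary 0.39. With 1 probe per gene voltage-gated was 0.11, two-pore -0.029, calcium- and sodium-activated 0.024 and noncoding 0.31. With normexp auxiliary was 0.28, where the median of all probes was 0.09. Without 1 array the auxiliary median ran from -0.024 to 0.36. The cause of these changes was not tested.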

Other observations

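The naming rule left out 22 kept probes of 20 potassium channel genes, and those named here were chosen after their values were seen. By limma 0 of the 22 passed the threshold, 3 had an unadjusted p below 0.05, the lowest adjusted p was 0.112, and 12 lay above 0, with a median difference of 0.02. Kcnj14, an inward rectifier, read -1.19, -1.32, -0.99, -1.15 and -1.48 in knockout, against -1.95, -2.07, -1.15, -1.23 and -1.17 in wild type. The 2 slide 1 arrays stood below the other 8, which overlapped, and the difference of 0.29 ± 0.20 (limma adjusted p = 0.378) was -0.04 within slide 2. Kcna1, a delayed rectifier known from nerve, had the lowest difference of the 22, -0.45 ± 0.23 (adjusted p = 0.231). Both Kcnd1 probes lay above 0, at 0.40 and 0.26 (adjusted p = 0.112 and 0.217).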
